A study of Sus scrofa with 18 samples.

Results

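The inner circular layer (CM) and the outer longitudinal layer (LM) of the pig myometrium were compared on day 12 of pregnancy, before implantation. The comparison rests on 6 of the 18 libraries of the series, the CM libraries of gilts 1, 2 and 3 and the LM libraries of the same 3 gilts, paired by gilt. All 9 gilts of the series were Yorkshire, those used here had been mated naturally, conceptuses had been found in their flushed uteri, and both layers were taken from the mesometrial side of the uterus. The other 12 libraries hold the same layers of 3 gilts on day 15 of pregnancy and of 3 cyclic gilts on day 15 and enter only where the layer difference is compared between states. Each library is bulk RNA of a dissected muscle layer with whatever other cells came with it, so fewer cells of a type and less RNA per cell cannot be told apart.

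The myometrium is the smooth muscle wall of the uterus, and its circular layer lies against the endometrium while its longitudinal layer lies under the serosa. Smooth muscle contracts when calcium and calmodulin activate the kinase that phosphorylates the myosin light chain, and relaxes when cyclic nucleotides or the myosin phosphatase work against it. Catecholamines, oxytocin, prostaglandins and tachykinins set this balance through receptors on the muscle cells, and ovarian steroids change how many of these receptors the cells make. On the days before implantation the pig uterus moves and spaces its conceptuses along the horns.

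Levels are TPM, a relative transcript abundance per length in which every library sums to 1000000. Fold changes are differences of log2(TPM + 1), CM minus LM, estimated within gilts. A value such as -1.04 ± 0.20 is a log2 fold change with limma's moderated standard error. That error draws on the spread of all genes tested as well as on the 3 gilts. For differences between states it comes from the fit of all 18 libraries. A gene was tested when it reached 1 TPM in at least 3 of the 6 libraries, and it was called when limma's moderated test gave a Benjamini-Hochberg adjusted p below 0.05 over all 13969 genes tested and the log2 fold change was beyond 1 in either direction. Gene lists are described by the number and share of members called and by their median. Over all genes tested 14.8% were called higher in CM and 3.16% in LM, and the median was 0.23, and the figures of each list are to be read against these. Where a call was checked without a gilt, both of its libraries were left out and the same genes were tested.

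The layer held most of the variation among the 6 libraries. The first principal component took 74.21% of the variance, with the CM libraries of gilts 1, 2 and 3 at -69.33, -35.97 and -76.89, against 61.82, 55.69 and 64.67 for their LM libraries. The CM library of gilt 2 thus lay nearest to the LM libraries. Between 16808 and 16958 genes were above 0 in the CM libraries and between 16035 and 16343 in the LM libraries, and the 50 most abundant genes took 22.1% to 25.5% of the TPM in CM and 27.3% to 30.1% in LM. The most abundant gene of both layers was SPARC, a matricellular protein, at a mean of 15220 TPM in CM libraries, against 19420 TPM in LM libraries, and actin, collagen and mitochondrial genes were near the top in both. SPARC was chosen after its values were seen. The tissue label was met in both layers, since the 15 contractile filament genes summed to 29920, 39690 and 22200 TPM in CM, against 60830, 50030 and 54000 TPM in LM.

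Markers of another cell type moved with the layer. Of 20 tested markers of luminal and glandular epithelium, the endometrial lining that faces the circular layer, 18 were higher in CM and 1 was higher in LM. Their summed level was 2405, 1473 and 2562 TPM in CM, against 367, 346 and 385.7 TPM in LM, and without CDH3 it was 2353, 1341 and 2516 TPM in CM, against 76.3, 58.5 and 56.9 TPM in LM. None of the 21 markers matched was at 0 in all libraries of either layer. The CM library of gilt 2 held the least epithelial RNA and the most contractile filament RNA of the CM libraries, and 74% of the genes called higher in CM had their lowest CM level in gilt 2, against 49.8% of all genes tested. The part of epithelial cells in the results below was not tested, and the level in gilt 2 is given where a group of genes moved with it.

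In all, 2515 genes were called, 18% of those tested. Of these, 2074 (14.8%) were higher in CM and 441 (3.16%) were higher in LM, and 859 of the CM calls and 58 of the LM calls passed 4-fold, a log2 fold change of 2. All 2515 went the same way in the 3 gilts, and in 2404 the layers did not overlap, as did 34.4% of all genes with CM above LM and 11.9% with LM above CM. The median log2 fold change over all genes tested was 0.23, toward CM, and the fold changes given here include this shift. Median-ratio scaling removes this shift, and with it 1643 genes were called higher in CM and 732 in LM, while quantile normalization gave 1346 in CM and 902 in LM. A total of 578 genes passed the filter through CM alone, of which 509 were called, and 29 through LM alone, of which 14 were called. Such genes stayed below 1 TPM in each library of the other layer and had to differ, so the direction of those named below, marked as passing through CM or LM alone, was fixed by the filter. Leaving out gilt 3 lowered the number of calls to 1045, leaving out gilt 1 gave 2139, and leaving out gilt 2 gave 3215. The 2 gilts left in each of these fits leave 1 residual degree of freedom per gene before moderation.

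**Figure D1:**
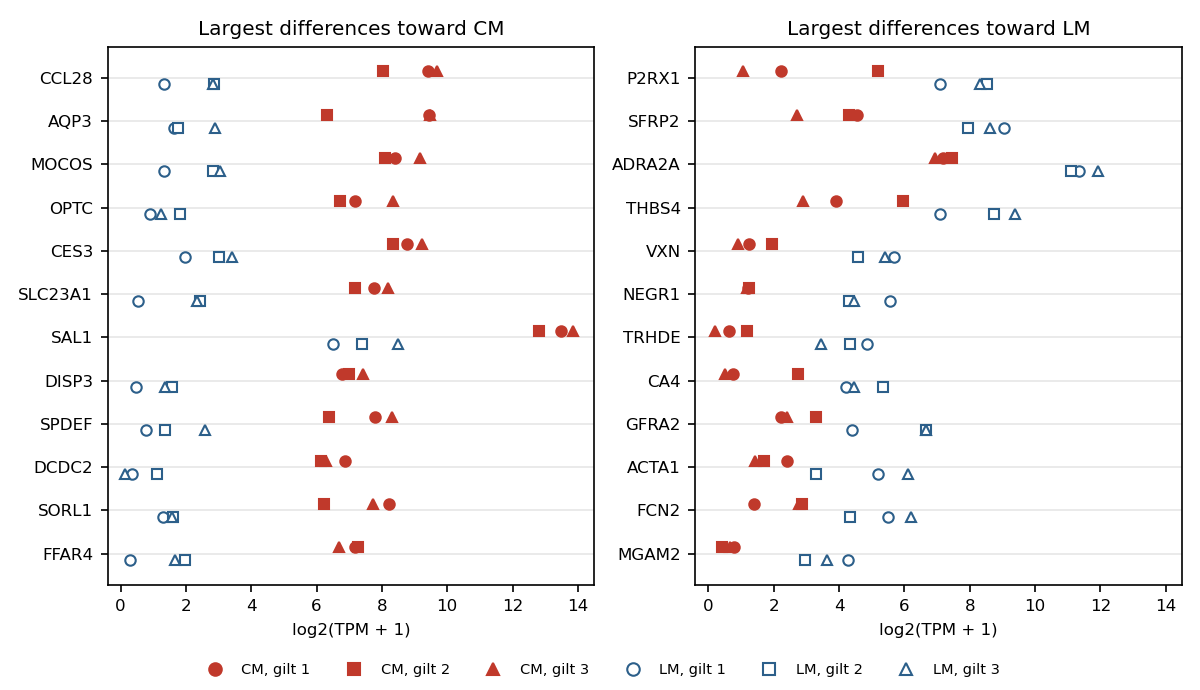
Level of the 12 genes with the largest log2 fold change toward CM (left) and toward LM (right) in each library, as log2(TPM + 1), with filled red symbols for CM, open blue symbols for LM and one symbol shape per gilt. The layers do not overlap for any of the 24 genes. On the right, the CM library of gilt 2 (square) is the highest CM library for every gene except SFRP2, ACTA1 and MGAM2. On the left it is the highest for FFAR4 alone.

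The gene with the largest difference toward CM was CCL28, a mucosal chemokine. It was at 681, 263 and 831 TPM in CM, against 1.496, 6.18 and 6.07 TPM in LM (6.72 ± 0.50, adjusted p = 0.000903; ENSSSCG00000016871, chromosome 16, 27990024 to 28010859 in Sscrofa11.1). No CM library came near the LM level, and gilt 2 was the lowest of the CM libraries. AQP3, a channel for water and glycerol, had the next largest difference, with 688, 79.6 and 707 TPM in CM, against 2.08, 2.36 and 6.34 TPM in LM (6.33 ± 0.56, adjusted p = 0.00135; ENSSSCG00000040513, chromosome 10, 33045374 to 33050285 in Sscrofa11.1). Its level in the CM of gilt 2 was far below that of the other 2 gilts but still far above LM. MOCOS, which activates molybdenum enzymes, was at 339.7, 270.2 and 569 TPM in CM, against 1.4997, 6.12 and 7.20 TPM in LM (6.15 ± 0.33). OPTC, a small leucine-rich proteoglycan, was at 142, 104 and 325 TPM in CM, against 0.865, 2.53 and 1.35 TPM in LM (6.09 ± 0.40).

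The other 8 of the 12 largest were CES3, a carboxylesterase (5.98 ± 0.28), SLC23A1, a vitamin C transporter (5.94 ± 0.44), SAL1, the salivary lipocalin (5.93 ± 0.34), DISP3, a relative of the hedgehog release factor Dispatched (5.93 ± 0.21), SPDEF, an epithelial transcription factor (5.93 ± 0.37), DCDC2, a doublecortin protein of cilia (5.90 ± 0.31), SORL1, a sorting receptor (5.90 ± 0.41), and FFAR4, a receptor for long-chain fatty acids (5.74 ± 0.37). DISP3 did not follow the low epithelial level of gilt 2, with 109, 126 and 169.7 TPM in CM, against 0.373, 2.002 and 1.56 TPM in LM. FFAR4 was highest in that gilt, with 143, 154 and 102 TPM in CM, against 0.209, 2.91 and 2.16 TPM in LM. Each of the 12 genes was at 69.0 TPM or more in each CM library and, with the exception of SAL1, at 9.68 TPM or less in each LM library.

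The 12 most negative fold changes began with P2RX1, an ATP-gated cation channel of smooth muscle. It was at 3.63, 35.5 and 1.07 TPM in CM, against 136, 372 and 318 TPM in LM (-5.17 ± 0.68, adjusted p = 0.00407; ENSSSCG00000022405, chromosome 12, 49956329 to 49974789 in Sscrofa11.1). Gilts differed widely in CM, where gilt 2 was the highest, but no CM library reached the lowest LM library. SFRP2, a secreted Wnt modulator, was at 22.6, 18.8 and 5.56 TPM in CM, against 533, 247 and 395 TPM in LM (-4.69 ± 0.40, adjusted p = 0.00121; ENSSSCG00000009004, chromosome 8, 75337311 to 75345926 in Sscrofa11.1). THBS4, a thrombospondin of tendon and muscle matrix, was at 13.98, 61.3 and 6.46 TPM in CM, against 136, 428 and 669.7 TPM in LM (-4.16 ± 0.69). Gilts 2 and 3 were higher than gilt 1 in LM, and gilt 2 was the highest in CM.

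Of the others among the 12, NEGR1, a neuronal adhesion molecule, was at 1.30, 1.36 and 1.27 TPM in CM, against 46.0, 18.9 and 21.0 TPM in LM (-3.57 ± 0.29). TRHDE, the enzyme that degrades thyrotropin-releasing hormone, was at 0.546, 1.24 and 0.144 TPM in CM, against 27.9, 19.0 and 10.0 TPM in LM (-3.55 ± 0.27). VXN was at 1.37, 2.88 and 0.882 TPM in CM, against 50.2, 22.9 and 41.5 TPM in LM (-3.85 ± 0.39). CA4, a membrane-bound carbonic anhydrase, was higher in LM by -3.35 ± 0.28 and the skeletal muscle actin ACTA1 by -3.02 ± 0.55, while FCN2, a lectin of the complement system, had -3.0 ± 0.49 and MGAM2, a maltase-glucoamylase relative, -3.0 ± 0.26. MGAM2 passed the filter through LM alone. Without gilt 3, ACTA1 and FCN2 lost their calls. ACTA1 shares most of its coding sequence with the other actins, and how reads shared between near-identical genes were counted is not stated.

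**Figure D2:**
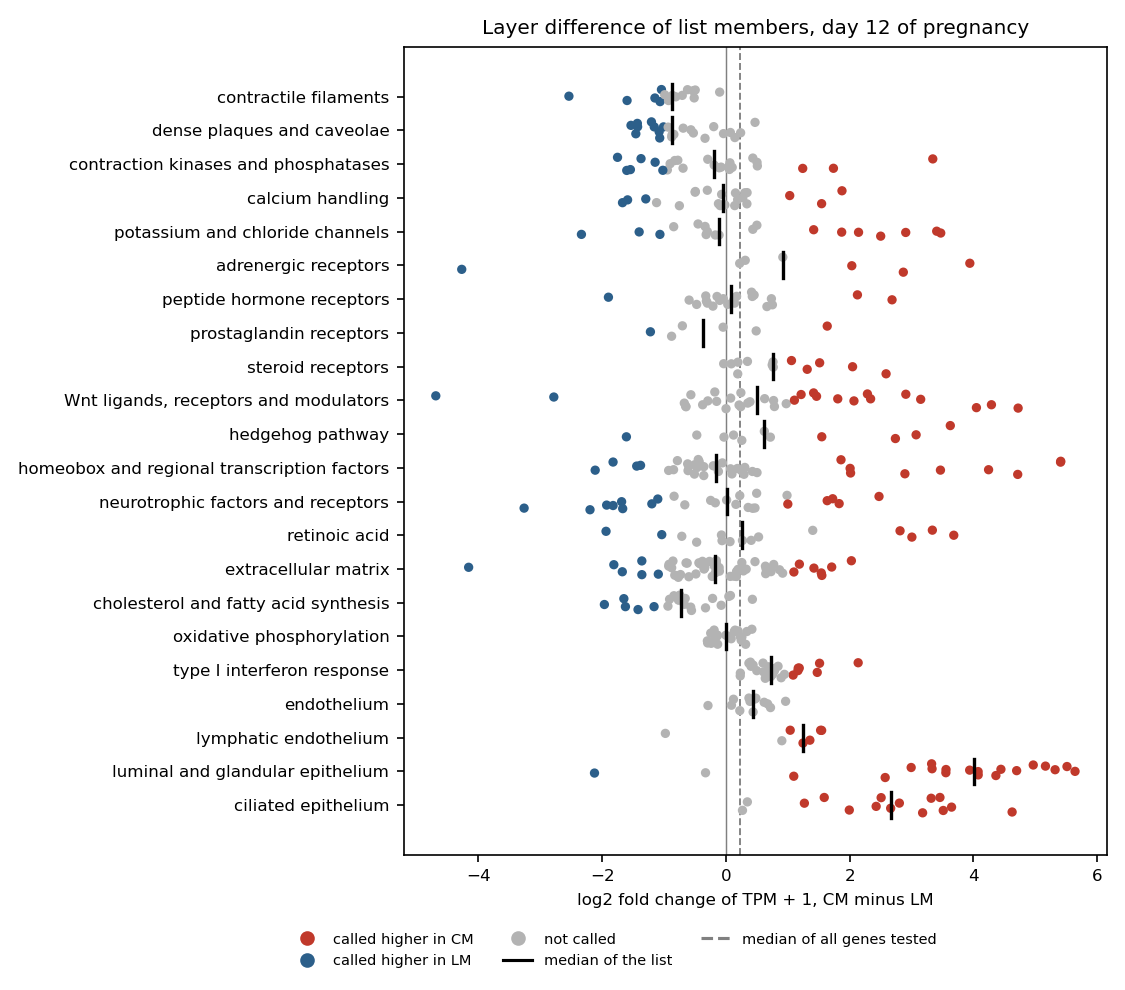
Log2 fold change (CM minus LM) of each tested member of 22 gene lists on day 12 of pregnancy, with genes called higher in CM in red, called higher in LM in blue and not called in grey. Black bars mark the median of a list and the dashed line the median of all genes tested (0.23); contractile filament genes lie to the left of 0 and epithelial genes far to the right.

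Contractile filament genes lay toward LM. All 15 contractile filament genes had a negative fold change, 5 (33.3%) were called higher in LM and none in CM, and their median was -0.86. MYH11, the heavy chain of smooth muscle myosin, was at 1702, 1929 and 985 TPM in CM, against 4096, 2806 and 2459 TPM in LM (-1.04 ± 0.20, adjusted p = 0.0137). TPM2, beta-tropomyosin, was at 2265, 3286 and 2135 TPM in CM, against 7700.2, 6545 and 8747 TPM in LM (-1.6 ± 0.25, adjusted p = 0.00666). The layers did not overlap for either gene, and the CM library of gilt 2 was the highest of the CM libraries for both. MYL9, the regulatory light chain, had -1.06 ± 0.21 and SMTN, smoothelin, -1.15 ± 0.26. The smooth muscle actins ACTA2 (-0.62 ± 0.30) and ACTG2 (-0.86 ± 0.22) and calponin CNN1 (-0.99 ± 0.24) did not pass the call. ACTC1, the cardiac actin, was at 20.3, 11.2 and 1.76 TPM in CM, against 69.7, 48.8 and 38.8 TPM in LM (-2.54 ± 0.41), with the same limit on shared reads as ACTA1. Of the 15 genes, 14 had their highest CM level in gilt 2, and without gilt 3 only ACTC1 kept its call. Quantile normalization ended the calls of MYH11, MYL9 and SMTN, and median-ratio scaling added ACTG2 and CNN1.

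Genes of dense plaques and caveolae, which anchor the filaments and fold the cell membrane, are described beside the filaments. Of 23 tested, 9 (39.1%) were called higher in LM and none in CM, with a median of -0.87. The largest were ITGA5, an integrin that binds fibronectin (86.9, 214 and 73.1 TPM in CM, against 265, 351 and 362 TPM in LM; -1.53 ± 0.29), and CAV1, the coat protein of caveolae (371, 565 and 369 TPM in CM, against 1323, 979.7 and 1239.5 TPM in LM; -1.46 ± 0.23). CAVIN3 (-1.43 ± 0.26) and PDLIM7 (-1.43 ± 0.22) were alike in size, and filamin FLNA (-1.20 ± 0.26) and desmin DES (-1.07 ± 0.28) were nearer the threshold. Without gilt 1, 4 of the 9 kept their calls, and without gilt 3 none did. Among 12 smooth muscle transcription factors, GATA6 was higher in LM, with 3.32, 5.79 and 2.74 TPM in CM, against 17.8, 25.6 and 27.7 TPM in LM (-2.34 ± 0.24, adjusted p = 0.00187), while the Notch target HEYL (2.08 ± 0.30) and the SRF partner MRTFB (1.18 ± 0.20) were higher in CM, and without gilt 3 only GATA6 kept its call. MYOCD, the master coactivator of smooth muscle genes, was at 108, 135 and 57.2 TPM in CM, against 93.8, 89.3 and 55.8 TPM in LM (0.27 ± 0.14, not called).

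The kinases and phosphatases that set the force of contraction were split between the layers. Of 25 tested, 6 (24%) were called higher in LM and 3 (12%) in CM, with a median of -0.19. The CM share lay near that over all genes, 14.8%, and the LM share above 3.16%. PDE3A, a phosphodiesterase that breaks down cyclic AMP, was at 26.2, 58.0 and 22.1 TPM in CM, against 2.53, 4.03 and 0.997 TPM in LM (3.34 ± 0.20, adjusted p = 0.000594). PDE4D, another cyclic AMP phosphodiesterase, went the other way, with 5.86, 5.20 and 4.23 TPM in CM, against 17.0, 17.7 and 10.4 TPM in LM (-1.37 ± 0.18, adjusted p = 0.00403). Both directions held in the 3 gilts and with any 1 gilt left out. RGS4, a brake on Gq signals (1.74 ± 0.31), and PRKCA, protein kinase C alpha (1.24 ± 0.23), were the other genes higher in CM, and in both the layers overlapped. Higher in LM were CAMKK1, a calmodulin-dependent kinase kinase (-1.75 ± 0.21), PRKG1, the cyclic GMP kinase (-1.6 ± 0.17), PPP1R14A, the inhibitor of myosin phosphatase (-1.54 ± 0.20), CAMK2G (-1.14 ± 0.17) and the phospholipase PLCB4 (-1.02 ± 0.16). PLCB3 (-0.83 ± 0.14) and IRAG1, a target of the cyclic GMP kinase (-0.78 ± 0.15), missed the fold threshold but passed it under median-ratio scaling. Without gilt 3, 4 of the 6 LM calls and 1 of the 3 CM calls were kept.

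Of 22 genes of calcium channels and stores, 3 (13.6%) were called on each side, beside 14.8% of all genes in CM and 3.16% in LM, so the CM share was about that of all genes. The median was -0.04. RYR3, a calcium release channel of the sarcoplasmic reticulum, was at 7.70, 7.45 and 3.43 TPM in CM, against 31.0, 21.6 and 13.5 TPM in LM (-1.67 ± 0.17, adjusted p = 0.00194). ITPR3, a release channel gated by inositol trisphosphate, was at 9.72, 11.6 and 12.3 TPM in CM, against 2.40, 3.01 and 1.66 TPM in LM (1.88 ± 0.22, adjusted p = 0.00306). ITPR1, the release channel named by the study, had -0.3 ± 0.19 and was not called. The calcium pump ATP2A3 (-1.59 ± 0.25) and the T-type channel CACNA1H (-1.30 ± 0.19) were higher in LM. Both lost their calls without gilt 3. ITPR2 (1.03 ± 0.25) and TRPV4 (1.55 ± 0.38) were higher in CM, but neither kept its call without gilt 1 or without gilt 3, and TRPV4 passed the filter through CM alone.

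Of 19 potassium and chloride channel genes, 7 (36.8%) were called higher in CM and 3 (15.8%) in LM. KCNQ1, a voltage-gated potassium channel found in epithelia and heart, was at 38.2, 14.2 and 24.1 TPM in CM, against 1.29, 1.22 and 1.15 TPM in LM (3.47 ± 0.28, adjusted p = 0.00105). KCNQ5, of the same family and known from smooth muscle, was at 1.76, 1.37 and 0.996 TPM in CM, against 17.7, 8.99 and 7.95 TPM in LM (-2.33 ± 0.23, adjusted p = 0.0017). These members of the family thus differed in opposite directions. KCNH2, the ERG channel that repolarizes the membrane, was also higher in LM, with 81.0, 116 and 71.9 TPM in CM, against 234, 209.9 and 260.1 TPM in LM (-1.4 ± 0.20). KCNE3, a partner subunit of KCNQ1, was higher in CM (2.91 ± 0.30), as were the background potassium channel KCNK5 (3.41 ± 0.34), the chloride exchanger CLCN3 (2.5 ± 0.23) and the small-conductance channel KCNN2 (2.14 ± 0.27). ANO1, the calcium-activated chloride channel of pacemaker and muscle cells, was at 38.5, 70.2 and 29.7 TPM in CM, against 6.73, 15.4 and 12.9 TPM in LM (1.87 ± 0.25, adjusted p = 0.00446), highest in gilt 2. NALCN, the sodium leak channel, had 1.42 ± 0.36. Without gilt 3, KCNH2 and NALCN lost their calls. KCNMA1, the large-conductance channel, was at 75.9, 118 and 67.3 TPM in CM, against 97.8, 102 and 76.3 TPM in LM (-0.11 ± 0.15, not called). Among gap junction genes, which couple muscle cells electrically, only GJB1, a connexin of epithelia and Schwann cells, was called (2.5 ± 0.30), and it passed the filter through CM alone. GJA1, the main uterine connexin, was at 305, 489.8 and 208 TPM in CM, against 219, 264 and 134 TPM in LM (0.66 ± 0.13, not called).

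**Figure D3:**
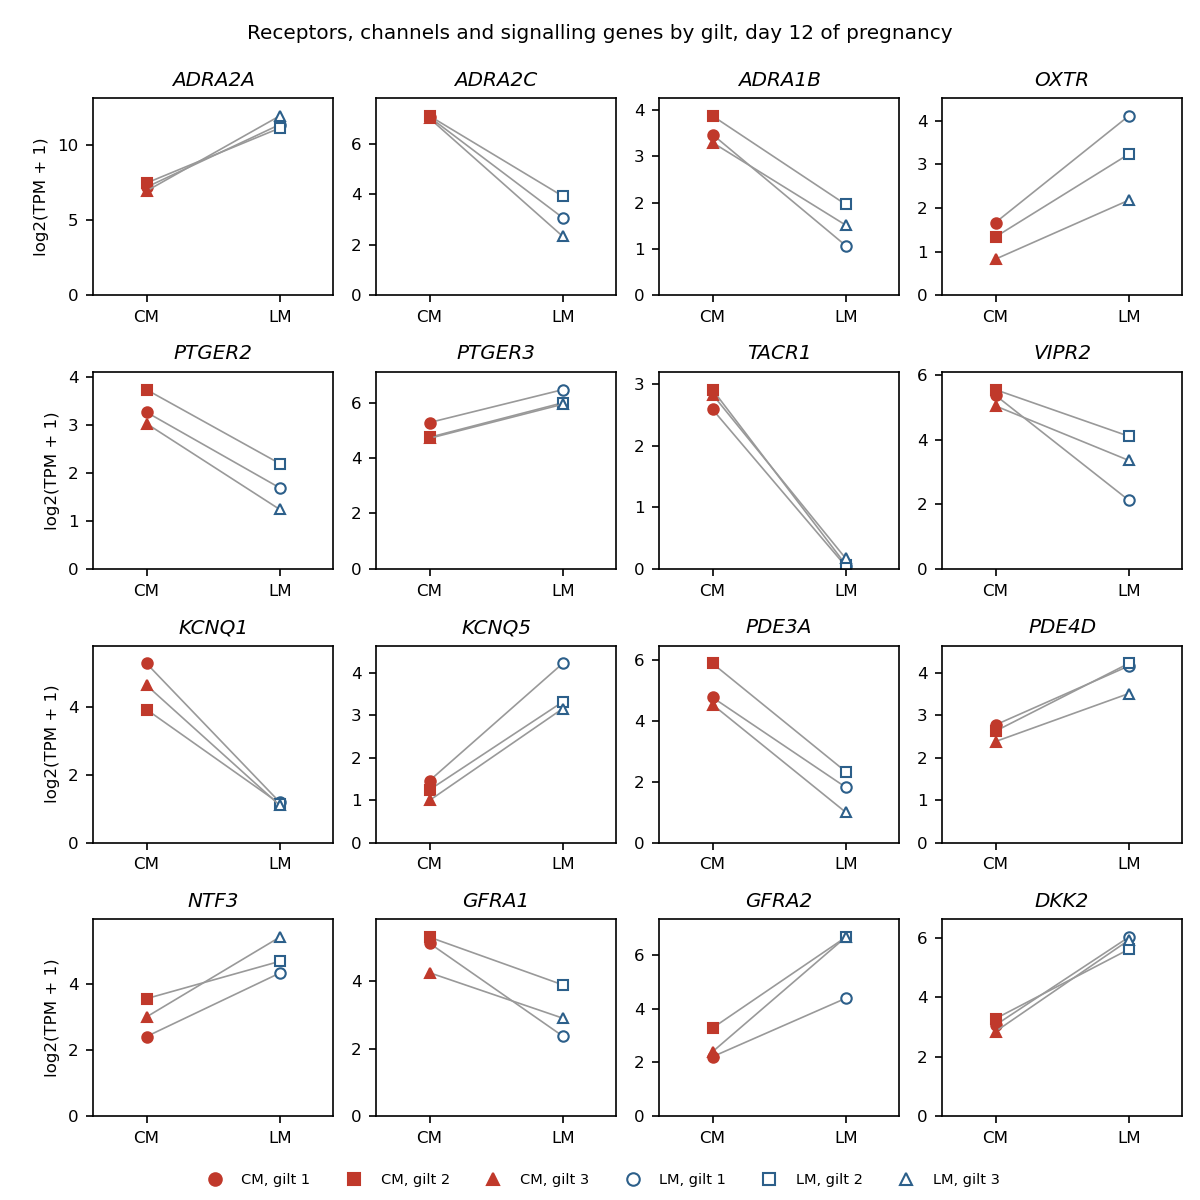
Level of 16 receptor, channel and signalling genes as log2(TPM + 1) in CM (left, red) and LM (right, open blue) of each gilt, with a grey line joining the layers of a gilt and one symbol shape per gilt. Each gene has its own vertical axis from 0; in every panel the 3 lines run the same way and the layers do not overlap.

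Receptors for catecholamines differed by subtype. ADRA2A, the alpha-2A receptor, was at 144, 175 and 121 TPM in CM, against 2596, 2212 and 3872 TPM in LM (-4.27 ± 0.26, adjusted p = 0.000613; ENSSSCG00000010629, chromosome 14, 121469572 to 121470924 in Sscrofa11.1). ADRA2C, the alpha-2C receptor, was at 131, 135 and 127 TPM in CM, against 7.37, 14.1 and 4.02 TPM in LM (3.94 ± 0.28, adjusted p = 0.000792; ENSSSCG00000008703, chromosome 8, 2320125 to 2322162 in Sscrofa11.1). In LM the alpha-2A transcript far outnumbered the alpha-2C transcript, and in CM both lay between 121 and 175 TPM. ADRA1B, an alpha-1 receptor coupled to calcium release, was at 10.1, 13.7 and 8.86 TPM in CM, against 1.102, 2.90 and 1.86 TPM in LM (2.03 ± 0.21, adjusted p = 0.00215). ADRB1, a beta receptor, was at 7.83, 2.78 and 15.1 TPM in CM, against 0, 0.381 and 0 TPM in LM (2.87 ± 0.49) and passed the filter through CM alone. These were the 4 calls among 7 tested receptors, 3 toward CM and 1 toward LM, and ADRA2A, ADRA2C and ADRA1B kept theirs with any 1 gilt left out, while ADRB1 lost its call without gilt 3.

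Of 22 peptide receptors tested, 2 (9.09%) were called higher in CM and 1 (4.55%) in LM, beside 14.8% and 3.16% of all genes, and their median was 0.08 (-0.13 under median-ratio scaling). TACR1, the substance P receptor, was at 5.03, 6.53 and 6.13 TPM in CM, against 0.0314, 0.0501 and 0.126 TPM in LM (2.69 ± 0.23, adjusted p = 0.0012), so it was near 0 in LM and passed the filter through CM alone. VIPR2, a receptor for the relaxing peptide VIP, was at 40.6, 46.0 and 32.1 TPM in CM, against 3.37, 16.3 and 9.29 TPM in LM (2.13 ± 0.36, adjusted p = 0.00873), and its call was lost without gilt 3. OXTR, the oxytocin receptor, was at 2.18, 1.53 and 0.775 TPM in CM, against 16.3, 8.42 and 3.53 TPM in LM (-1.90 ± 0.27, adjusted p = 0.00517; ENSSSCG00000021585, chromosome 13, 65134055 to 65155543 in Sscrofa11.1). The oxytocin receptor was higher in LM in each gilt, but the gilts differed by as much, and the LM of gilt 3 lay not far above the CM of gilt 1. The endothelin receptor EDNRA (0.43 ± 0.26) and the angiotensin receptor AGTR1 (0.41 ± 0.15) were not called.

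Among prostaglandin receptors, 1 of 6 (16.7%) was called on each side, beside 14.8% of all genes in CM and 3.16% in LM. PTGER3, the EP3 receptor that lowers cyclic AMP and favors contraction, was at 37.9, 25.9 and 25.2 TPM in CM, against 87.5, 62.7 and 60.5 TPM in LM (-1.22 ± 0.11, adjusted p = 0.00157). PTGER2, the EP2 receptor that raises cyclic AMP and relaxes, was at 8.66, 12.4 and 7.19 TPM in CM, against 2.23, 3.59 and 1.37 TPM in LM (1.64 ± 0.19, adjusted p = 0.00287). Both kept their calls with any 1 gilt left out. PTGFR, the receptor for prostaglandin F2 alpha, was at 18.4, 14.6 and 15.1 TPM in CM, against 34.2, 32.7 and 24.5 TPM in LM (-0.88 ± 0.15), below the fold threshold. Of 11 enzymes and carriers, 2 (18.2%) were called higher in CM and 1 (9.09%) in LM, so the CM share of both lists lay near that of all genes. The prostaglandin E synthase PTGES was higher in LM (-1.08 ± 0.26). HPGD, which inactivates prostaglandins (1.65 ± 0.45), and the thromboxane synthase TBXAS1 (1.97 ± 0.35) were higher in CM. None of these 3 kept its call without gilt 3.

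The receptors and enzymes for other transmitters held 5 more calls, all higher in CM. These were 2 of 7 serotonin and histamine genes (28.6%), 1 of 3 muscarinic and cholinesterase genes (33.3%) and 2 of 15 purinergic genes (13.3%). Over all genes 14.8% were called higher in CM, so the purinergic share was about that of all genes. HTR7, a serotonin receptor that raises cyclic AMP, was at 34.2, 36.8 and 37.1 TPM in CM, against 7.17, 20.4 and 15.7 TPM in LM (1.37 ± 0.26, adjusted p = 0.0122). SLC22A3, a carrier that clears amines (2.0 ± 0.23), and ACHE, the enzyme that splits acetylcholine (2.42 ± 0.25), had larger differences. The muscarinic receptor CHRM3 (-0.73 ± 0.28) and the histamine receptor HRH1 (-0.72 ± 0.21) were not called. P2RX3, an ATP-gated channel of sensory nerves (2.28 ± 0.32), and NT5E, which makes adenosine outside cells (1.79 ± 0.28), were higher in CM, so that P2RX1 was the only gene called higher in LM among 15 purinergic genes. P2RX3 passed the filter through CM alone. HTR7, P2RX3 and NT5E lost their calls without gilt 3.

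Ovarian steroids act on the muscle through nuclear receptors and their partners. Of 13 tested, 5 (38.5%) were called higher in CM, none in LM, and the median was 0.76. PGRMC1, a membrane-associated progesterone receptor component, was at 1019.8, 769 and 1202 TPM in CM, against 152, 175 and 160.3 TPM in LM (2.59 ± 0.18, adjusted p = 0.000731; ENSSSCG00000012625, chromosome X, 97735402 to 97743424 in Sscrofa11.1). FKBP4, a cochaperone of the progesterone receptor, was at 1069.8, 906 and 919 TPM in CM, against 375, 329 and 308 TPM in LM (1.52 ± 0.12, adjusted p = 0.00096). ESR1, estrogen receptor alpha, was at 189.8, 75.6 and 152 TPM in CM, against 35.3, 34.6 and 23.5 TPM in LM (2.05 ± 0.30, adjusted p = 0.00573; ENSSSCG00000025777, chromosome 1, 14217032 to 14604906 in Sscrofa11.1). Their CM levels were lowest in gilt 2, as were those of 9 of the 13 genes. GPER1, a membrane estrogen receptor, passed with a smaller difference (1.06 ± 0.19). PGR, the progesterone receptor, was at 34.3, 18.8 and 22.4 TPM in CM, against 21.8, 12.8 and 9.94 TPM in LM (0.75 ± 0.17, not called). Without gilt 3, PGRMC1 and FKBP4 kept their calls. Of 9 steroid enzymes, HSD11B2, which inactivates cortisol (2.60 ± 0.47), HSD17B7 (2.01 ± 0.14) and HSD17B8 (1.06 ± 0.19) were higher in CM and none in LM, and HSD17B7 alone kept its call without gilt 3.

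Wnt signaling patterns the uterus and its glands. Of 34 genes of its ligands, receptors and modulators, 13 (38.2%) were called higher in CM and 2 (5.88%) in LM, with a median of 0.51. NOTUM, which switches off Wnt proteins, was at 87.3, 14.52 and 152 TPM in CM, against 0.395, 1.02 and 3.03 TPM in LM (4.72 ± 0.56, adjusted p = 0.00306), and WIF1, a Wnt inhibitor, was at 155, 10.7 and 46.4 TPM in CM, against 1.35, 1.35 and 1.08 TPM in LM (4.29 ± 0.65, adjusted p = 0.00651). Both followed the epithelial markers in being lowest in the CM of gilt 2. LEF1, the nuclear partner of beta-catenin, was highest there, with 61.1, 78.9 and 66.5 TPM in CM, against 4.84, 8.87 and 7.34 TPM in LM (3.15 ± 0.15, adjusted p = 0.000435). WNT6 (2.91 ± 0.26), WNT2B (2.34 ± 0.28) and WNT2 (2.29 ± 0.31) and the receptors FZD5 (4.05 ± 0.34), FZD6 (2.07 ± 0.22), FZD10 (1.81 ± 0.32) and FZD8 (1.42 ± 0.15) were higher in CM, as was the feedback target AXIN2 (1.22 ± 0.27). DKK2, a modulator that binds Wnt coreceptors, was at 7.39, 8.74 and 6.22 TPM in CM, against 63.8, 47.8 and 59.5 TPM in LM (-2.78 ± 0.19, adjusted p = 0.000715). The only other gene higher in LM was SFRP2, given above, while the related modulator FRZB (1.46 ± 0.14) and the receptor LGR4 (1.11 ± 0.17) were higher in CM. Both LM calls and 7 of the 13 CM calls held with any 1 gilt left out.

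Of 11 hedgehog genes, 4 (36.4%) were called higher in CM and 1 (9.09%) in LM. IHH, the epithelial ligand that progesterone induces in the mouse uterus, was at 29.0, 3.40 and 24.2 TPM in CM, against 0.148, 0.118 and 0.376 TPM in LM (3.63 ± 0.53, adjusted p = 0.0057; ENSSSCG00000016204, chromosome 15, 121083750 to 121090548 in Sscrofa11.1). PTCH1, its receptor and target, was at 46.0, 14.3 and 29.9 TPM in CM, against 4.48, 3.33 and 2.14 TPM in LM (2.74 ± 0.31, adjusted p = 0.00275). HHIP (3.07 ± 0.45) and GLI1 (1.55 ± 0.29), which are targets of the pathway as well, were also higher in CM. All 4 were lowest in the CM of gilt 2, and IHH and HHIP passed the filter through CM alone. CDON, a coreceptor, was at 34.2, 25.1 and 22.0 TPM in CM, against 137, 65.9 and 64.0 TPM in LM (-1.61 ± 0.16, adjusted p = 0.0017). Without gilt 3, CDON and 1 of the 4 CM genes kept their calls.

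The activin and inhibin subunits INHBB and INHBA were opposed. INHBB was at 24.0, 29.5 and 13.9 TPM in CM, against 3.62, 2.68 and 1.80 TPM in LM (2.63 ± 0.20, adjusted p = 0.000972). INHBA was at 6.17, 8.21 and 1.97 TPM in CM, against 33.4, 19.1 and 13.1 TPM in LM (-1.88 ± 0.27, adjusted p = 0.00544). The layers did not overlap for either gene, but INHBA lost its call without gilt 3. The activin antagonist FST (2.07 ± 0.21), the growth factor TGFB3 (2.02 ± 0.40), BMP7 (1.33 ± 0.38) and the BMP antagonist CHRDL1 (1.1 ± 0.32) were higher in CM. BMP7 passed the filter through CM alone. Of the 5 CM calls among 16 genes of this list, 3 held without gilt 1, where BMP7 and CHRDL1 lost theirs, and 2 without gilt 3, where TGFB3 did too. Among 20 genes of fibroblast and platelet-derived growth factors, PDGFRA, the receptor of stromal and interstitial cells, was at 101, 90.9 and 72.4 TPM in CM, against 13.95, 25.5 and 9.03 TPM in LM (2.48 ± 0.23, adjusted p = 0.00157). The fibroblast growth factor receptors were divided, with FGFR3 higher in CM (2.21 ± 0.26) and FGFR4 (-1.68 ± 0.14) and FGFR1 (-1.32 ± 0.26) higher in LM. FGF9 (2.22 ± 0.25) and the KIT ligand KITLG (1.03 ± 0.30) were higher in CM, as was KIT itself (1.03 ± 0.17). FGF9 passed the filter through CM alone, KITLG and KIT lost their calls without gilt 1 or gilt 3, and FGFR1 lost its call without gilt 3. Of 12 genes of the insulin-like growth factor system, the binding protein IGFBP6 was higher in CM, with 698, 382 and 319 TPM in CM, against 87.3, 201 and 143 TPM in LM (1.69 ± 0.40), a call lost without gilt 3. STC2, a stanniocalcin that restrains the release of these factors, was higher in LM, with 1.06, 2.23 and 0.468 TPM in CM, against 12.3, 9.76 and 3.995 TPM in LM (-2.06 ± 0.27).

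**Figure D4:**
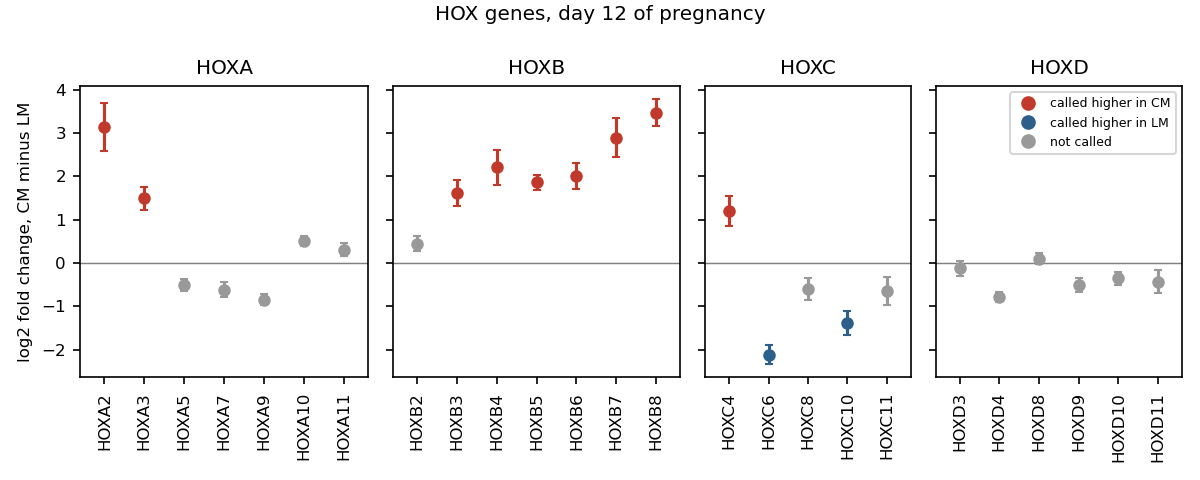
Log2 fold change (CM minus LM) with its standard error for 25 HOX genes, in their 4 clusters and in the order of their numbers, with genes called higher in CM in red, called higher in LM in blue and not called in grey. From HOXB3 to HOXB8 the fold changes run between 1.62 and 3.47, and no gene of the D cluster is called.

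Homeobox genes give regional identity in the embryo and are kept in the adult uterus. Of 39 homeobox and regional transcription factors, 9 (23.1%) were called higher in CM and 4 (10.3%) in LM, with a median of -0.16. DLX5 was at 167, 55.7 and 157 TPM in CM, against 2.04, 0.975 and 2.28 TPM in LM (5.41 ± 0.22, adjusted p = 0.000216) and its chromosomal neighbor DLX6, which passed the filter through CM alone, had 4.25 ± 0.38. The pair lies on chromosome 9 of Sscrofa11.1, DLX6 at 76623489 to 76630296 and DLX5 at 76639915 to 76643689. MSX1, needed for receptivity in the mouse uterus, was at 248, 139.7 and 404 TPM in CM, against 3.22, 5.01 and 6.27 TPM in LM (5.41 ± 0.28, adjusted p = 0.000515), and MSX2 had 4.72 ± 0.47. These 4 genes were lowest in the CM of gilt 2. HAND2, a progesterone-regulated factor of the uterine stroma in mice, was instead highest there, with 122, 152 and 84.8 TPM in CM, against 22.7, 47.9 and 20.2 TPM in LM (2.01 ± 0.17, adjusted p = 0.00111). PRRX2 (-1.82 ± 0.44) and MEIS1, a HOX cofactor (-1.44 ± 0.16), were higher in LM, and PRRX2 lost its call without gilt 3.

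The HOX clusters were examined beyond the list, which held only a part of them, and the genes outside the list were therefore chosen after values were seen. Of 25 HOX genes examined, 9 (36%) were called higher in CM and 2 (8%) in LM. In the B cluster, on chromosome 12, 6 of 7 were higher in CM. HOXB8 was at 15.4, 9.99 and 26.5 TPM in CM, against 0.428, 0.682 and 0.523 TPM in LM (3.47 ± 0.31, adjusted p = 0.00139; 24865985 to 24879706), and passed the filter through CM alone. HOXB6 was at 174, 106 and 349 TPM in CM, against 31.2, 51.7 and 58.6 TPM in LM (2.01 ± 0.31, adjusted p = 0.00661; 24849741 to 24853494). HOXB5 was nearly even across gilts, with 12.3, 12.8 and 12.6 TPM in CM, against 2.89, 2.498 and 2.81 TPM in LM (1.86 ± 0.18, adjusted p = 0.00163; 24845224 to 24849639). HOXB3 (1.62 ± 0.30), HOXB4 (2.21 ± 0.40) and HOXB7 (2.89 ± 0.44) were higher too, and HOXB2 (0.44 ± 0.17) was not called. HOXB3, HOXB4, HOXB6, HOXB7 and HOXB8 were lowest in the CM of gilt 2. Without gilt 3, HOXB5 and HOXB8 kept their calls and the other 4 did not.

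In the A cluster the low-numbered genes HOXA2 (3.15 ± 0.55) and HOXA3 (1.49 ± 0.27) were higher in CM. HOXA10 and HOXA11, the genes that mark the uterus along the reproductive tract, were not called. HOXA10 was at 239, 321 and 252 TPM in CM, against 173, 239.7 and 162 TPM in LM. HOXA11 was at 226, 291 and 211 TPM in CM, against 154, 216 and 220.4 TPM in LM. HOXA9, with -0.85 ± 0.12, missed the fold threshold. In the C cluster HOXC4 (1.19 ± 0.35) was higher in CM, while HOXC6 was at 4.51, 8.17 and 7.69 TPM in CM, against 30.4, 25.9 and 41.2 TPM in LM (-2.11 ± 0.22, adjusted p = 0.00209) and HOXC10 had -1.38 ± 0.28, both higher in LM. HOXA2, HOXA3, HOXC4 and HOXC10 lost their calls without gilt 3, and HOXC4 also without gilt 1. None of the 6 genes of the D cluster was called, and their fold changes were between -0.78 and 0.10.

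Genes that guide and feed nerves were divided between the layers by gene. Of 25 tested, 8 (32%) were called higher in LM and 5 (20%) in CM, with a median of 0.01 (-0.22 under median-ratio scaling). NTF3, neurotrophin 3, was at 4.36, 10.9 and 7.09 TPM in CM, against 19.3, 25.003 and 42.2 TPM in LM (-1.82 ± 0.26, adjusted p = 0.00543). Its receptor NTRK3 (-1.1 ± 0.21) and NGFR, the shared neurotrophin receptor (-1.20 ± 0.25), were also higher in LM. NTF4, neurotrophin 4, was higher in CM, with 36.8, 27.5 and 55.0 TPM in CM, against 9.04, 9.82 and 17.4 TPM in LM (1.64 ± 0.16, adjusted p = 0.00168).

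The receptors of the GDNF family were divided too. GFRA2, which binds neurturin, was at 3.64, 8.70 and 4.27 TPM in CM, against 19.8, 99.2 and 99.3 TPM in LM (-3.26 ± 0.38, adjusted p = 0.00288). GFRA1, which binds GDNF, was at 33.6, 38.2 and 17.9 TPM in CM, against 4.18, 13.8 and 6.48 TPM in LM (1.83 ± 0.30, adjusted p = 0.00828), and GFRA3, which binds artemin, had 2.47 ± 0.54. The guidance factors SLIT2 (-1.67 ± 0.26) and SEMA3E (-1.69 ± 0.23) and the semaphorin receptor NRP2 (-2.20 ± 0.21) were higher in LM, and netrin NTN1 (1.73 ± 0.16) and the semaphorin SEMA3A (1.0 ± 0.25) were higher in CM. Without gilt 3, 4 of the 8 LM calls and 2 of the 5 CM calls were kept. Of 5 tested markers of nerve and Schwann cells, ERBB3 (3.43 ± 0.23) and UCHL1 (3.59 ± 0.31) were higher in CM, while SOX10, L1CAM and NCAM1 had -0.62 ± 0.23, -0.43 ± 0.19 and -0.54 ± 0.22 and were not called. The median of the 5 was -0.43, toward LM, while the summed level of that list was higher in CM. The sum was 103.7, 103.8 and 99.2 TPM in CM, against 34.7, 42.0 and 20.9 TPM in LM. Of the matched members of the list, 3 were at 0 in all CM libraries and 2 in all LM libraries. The part of nerve and Schwann cells in the neurotrophin results was not tested.

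Retinoic acid is made from vitamin A and broken down by separate enzymes, and these were also split. ALDH1A2, a synthesis enzyme of mesenchyme, was at 19.8, 53.7 and 44.2 TPM in CM, against 139, 128 and 159 TPM in LM (-1.94 ± 0.28, adjusted p = 0.00559). ALDH1A3, which makes the same product in epithelia, was at 363, 98.0 and 272 TPM in CM, against 25.6, 13.1 and 24.4 TPM in LM (3.34 ± 0.20, adjusted p = 0.000613), and ALDH1A1 had 2.81 ± 0.27. STRA6, the receptor that takes up retinol, was at 41.3, 17.3 and 12.03 TPM in CM, against 1.08, 0.659 and 0.381 TPM in LM (3.68 ± 0.27). RARRES1, a retinoid-responsive gene, was higher in CM as well (3.01 ± 0.38). CYP26B1, which breaks retinoic acid down, was higher in LM (-1.04 ± 0.20). Of 15 genes tested, these were 4 calls toward CM and 2 toward LM, and ALDH1A2, CYP26B1 and RARRES1 lost theirs without gilt 3.

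Matrix genes differed between the layers by kind. Of 57 tested, 7 (12.3%) were called higher in CM and 6 (10.5%) in LM, with a median of -0.17, and the CM share lay near the 14.8% of all genes. Several basement membrane genes were higher in LM. NID2, nidogen 2, was at 77.0, 63.4 and 58.4 TPM in CM, against 257, 199.97 and 248 TPM in LM (-1.81 ± 0.13, adjusted p = 0.000821). COL4A5 was at 131, 135 and 105 TPM in CM, against 387, 282 and 290.2 TPM in LM (-1.36 ± 0.14, adjusted p = 0.00194), and its neighbor COL4A6 had -1.67 ± 0.15. The laminin chain LAMA5 (-1.09 ± 0.17) was higher in LM too, but the laminin chain LAMA3 (1.1 ± 0.26) and the basement membrane collagen COL18A1 (1.19 ± 0.19) were higher in CM. On the CM side were also tenascin TNC, with 178, 290.1 and 125 TPM in CM, against 21.0, 118 and 35.9 TPM in LM (2.03 ± 0.32, adjusted p = 0.00726), the fibulin FBLN2 (1.54 ± 0.24), the proteoglycan VCAN (1.42 ± 0.27), COL8A1 (1.71 ± 0.25) and TNN (1.55 ± 0.32). TNN passed the filter through CM alone. Without gilt 3, 5 of the 6 LM calls were kept but only 1 of the 7 CM calls.

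Of 25 proteases and inhibitors tested, 5 (20%) were called higher in CM and 3 (12%) in LM. PLAT, the tissue plasminogen activator, had 1.32 ± 0.17, with overlap, and was highest in gilt 2 in each layer. TIMP1 (1.05 ± 0.15), TIMP4 (1.42 ± 0.27) and the gelatinase MMP2 (1.01 ± 0.26) were higher in CM, and ADAMTS8 (-1.90 ± 0.44), ADAMTS15 (-1.23 ± 0.15) and MMP23B (-1.03 ± 0.19) were higher in LM. The growth factor-like matricellular genes CCN2 and CCN1, both targets of YAP, went opposite ways. CCN2 was at 916, 696 and 421 TPM in CM, against 189.7, 178 and 62.5 TPM in LM (2.32 ± 0.17, adjusted p = 0.000877), and CCN1 was at 120.2, 187 and 87.0 TPM in CM, against 248, 292 and 289.8 TPM in LM (-1.13 ± 0.21, adjusted p = 0.0121). Without gilt 1, TIMP1, TIMP4, MMP2 and ADAMTS8 lost their calls, without gilt 2 TIMP1 did, and without gilt 3 TIMP4, MMP2, ADAMTS8, MMP23B and CCN1 did.

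Epithelial genes had the largest median of the 57 lists. The 20 tested markers had a median of 4.01, and 6 of them passed the filter through CM alone. KRT18, a keratin of simple epithelia, was at 123, 65.4 and 132 TPM in CM, against 0.691, 0.802 and 1.88 TPM in LM (5.64 ± 0.22, adjusted p = 0.000216), and CLDN3, a tight junction claudin, was at 1044, 656 and 1165 TPM in CM, against 19.1, 19.3 and 19.6 TPM in LM (5.51 ± 0.18, adjusted p = 0.000216). FOXA2, the glandular factor of the endometrium, had 5.32 ± 0.32. EHF, CLDN4, ELF3 and KRT7 were not lowest in the CM of gilt 2, whereas KRT18 was. ELF3 was highest there, with 6.52, 14.48 and 4.51 TPM in CM, against 0.373, 0.552 and 0.426 TPM in LM. The single exception in direction was CDH3, P-cadherin, at 52.3, 132 and 46.3 TPM in CM, against 291, 288 and 329 TPM in LM (-2.12 ± 0.32, adjusted p = 0.00618). It was abundant in LM in each gilt, where EPCAM was at 1.12, 0.775 and 1.29 TPM, and its call was lost without gilt 3. Of the 18 CM calls, 17 held with any 1 gilt left out, and that of KRT7 did not.

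Genes of motile cilia were higher in CM as well, with 13 of 15 (86.7%) called and a median of 2.66. FOXJ1, the factor that drives ciliogenesis, was at 143, 104 and 147 TPM in CM, against 4.50, 3.59 and 4.91 TPM in LM (4.63 ± 0.13, adjusted p = 0.000216). All 15 genes were lowest in the CM of gilt 2, and 8 passed the filter through CM alone. Without gilt 3, 9 of the 13 calls were kept. Of 11 genes of gland secretions, 6 (54.5%) were called higher in CM and none in LM, and 2 of the 6 were kept without gilt 3. SAL1 took 1.15%, 0.715% and 1.47% of all TPM in CM, against 0.00888%, 0.0165% and 0.0358% in LM. The others were the retinol carrier RBP4 (2.90 ± 0.39), clusterin CLU (2.70 ± 0.33), osteopontin SPP1 (2.64 ± 0.21), TFF3 (1.88 ± 0.28), which passed the filter through CM alone, and the cathepsin CTSL (1.43 ± 0.26). SPP1 was highest in the CM of gilt 2, with 35.6, 53.8 and 17.1 TPM in CM, against 3.10, 8.80 and 2.71 TPM in LM. RBP4 was highest there too, with 129, 150.4 and 77.4 TPM in CM, against 41.4, 10.7 and 6.51 TPM in LM.

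Carriers move metals, vitamins and amino acids across epithelia and into cells. Of 13 genes for zinc and metallothioneins, 5 (38.5%) were called higher in CM and none in LM. MT1X was at 1039, 1237 and 2017 TPM in CM, against 48.9, 16.7 and 34.1 TPM in LM (5.45 ± 0.33, adjusted p = 0.000613) and MT3 at 234, 33.1 and 374 TPM in CM, against 3.86, 1.08 and 3.47 TPM in LM (5.34 ± 0.42, adjusted p = 0.00105). MT3 was lowest in the CM of gilt 2, and MT1X was not. Metallothioneins are near-identical to each other, so their levels are uncertain where reads were shared. The zinc importer SLC39A2 (4.27 ± 0.33) and the exporter SLC30A2 (3.94 ± 0.41) were higher in CM and likewise not lowest in gilt 2. Of 4 aquaporins, AQP11 (2.93 ± 0.19) was called beside AQP3. Of 21 amino acid, sugar and vitamin carriers, 9 (42.9%) were called higher in CM and 2 (9.52%) in LM, and without gilt 3, 5 of the 9 were kept. SLC38A1, a glutamine carrier, was at 163, 147 and 164 TPM in CM, against 8.87, 8.09 and 3.55 TPM in LM (4.42 ± 0.25, adjusted p = 0.000581). The neutral amino acid carriers SLC1A4 (-1.88 ± 0.25) and SLC1A5 (-1.01 ± 0.24) were higher in LM but lost their calls without gilt 3.

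Blood and lymphatic vessels have their own endothelium. None of 13 blood endothelial genes was called, and their median was 0.44, beside 0.23 over all genes. PECAM1 was at 38.8, 49.95 and 35.0 TPM in CM, against 34.9, 35.5 and 24.6 TPM in LM (0.37 ± 0.14). Of 7 lymphatic endothelial genes, 5 (71.4%) were called higher in CM, with a median of 1.25. LYVE1 was at 35.5, 41.4 and 34.3 TPM in CM, against 11.15, 24.4 and 12.3 TPM in LM (1.25 ± 0.20, adjusted p = 0.00739), and the lymphatic growth factor receptor FLT4 was at 14.2, 24.2 and 19.4 TPM in CM, against 4.88, 11.9 and 5.10 TPM in LM (1.36 ± 0.20, adjusted p = 0.00585). The lymphatic chemokine CCL21 (1.53 ± 0.34), MMRN1 (1.55 ± 0.29) and RELN (1.04 ± 0.24) were the others. Of the 2 lymphatic genes not called, 1 went toward LM (-0.98), and its layers did not overlap. The layer difference of all 7 genes was smallest in gilt 2, and none of the 5 calls was kept without gilt 3. Of 10 pericyte genes, 1 (10%) was called on each side, 4 had a positive fold change, and the median was -0.17. The gene called higher in CM was RGS5, at 309, 608 and 199 TPM in CM, against 56.6, 139 and 57.3 TPM in LM (2.11 ± 0.15, adjusted p = 0.000821). MCAM, of pericytes and smooth muscle, was higher in LM (-1.07 ± 0.26), a call lost without gilt 1 or gilt 3.

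Blood cell genes varied between gilts. HBB, beta-globin, was at 58.3, 124 and 349 TPM in CM, against 8.12, 31.2 and 17.5 TPM in LM (2.97 ± 0.41, adjusted p = 0.00484), and other globin genes can share its reads. Of 9 genes of B and plasma cells, 4 (44.4%) were called higher in CM, among them JCHAIN, the joining chain of secreted antibodies, at 32.8, 9.38 and 46.0 TPM in CM, against 1.88, 1.87 and 1.80 TPM in LM (3.16 ± 0.42, adjusted p = 0.00447), and MZB1 (2.87 ± 0.34). PIGR (2.81 ± 0.33) and PRDM1 (2.08 ± 0.19), which epithelia express too, were the others, and PIGR passed the filter through CM alone. CD79A and POU2AF1 were not called, with -0.25 ± 0.26 and 0.06 ± 0.27. Of 9 T and NK cell genes and 12 macrophage genes, 1 each was called, the T cell gene CD2 (1.0 ± 0.25) and LYVE1, which lymphatic endothelium shares with macrophages. HDC, the histamine-forming enzyme of mast cells, had 2.11 ± 0.34 and passed the filter through CM alone. Without gilt 3, JCHAIN, MZB1, LYVE1, HDC and CD2 lost their calls, and CD2 did so without gilt 1 too.

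Chemokines and their decoy receptors set where immune cells go. Besides CCL28, CCL19 (1.53 ± 0.21), CXCL14 (2.15 ± 0.46) and the decoy receptors ACKR3 (1.72 ± 0.25), ACKR1 (1.34 ± 0.21) and ACKR2 (1.02 ± 0.25) were called higher in CM, 6 of 14 (42.9%) in all. CXCL12, a stromal chemokine, was at 12.2, 14.6 and 25.6 TPM in CM, against 71.4, 44.7 and 95.5 TPM in LM (-1.95 ± 0.20, adjusted p = 0.00187). It was the only one higher in LM, and it is the ligand that ACKR3 clears. Without gilt 3, CCL28 and CXCL12 kept their calls. Of 18 genes of interleukin-1 and inflammatory cytokines, 2 were called higher in CM and 1 in LM. The CM share lay below the 14.8% of all genes, and the LM share, which rests on 1 gene, above 3.16%. Their median was 0.15, beside 0.23 over all genes. IL33 (1.31 ± 0.15) and the receptor IL11RA (1.31 ± 0.15) were higher in CM. IL18 was higher in LM, with 6.005, 5.18 and 9.33 TPM in CM, against 16.7, 15.9 and 23.8 TPM in LM (-1.35 ± 0.15, adjusted p = 0.0028). These 3 calls held with any 1 gilt left out. The complement genes C7 (3.38 ± 0.39), C4A (2.77 ± 0.44) and C3 (1.53 ± 0.26) were higher in CM, and none kept its call without gilt 3.

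**Figure D5:**
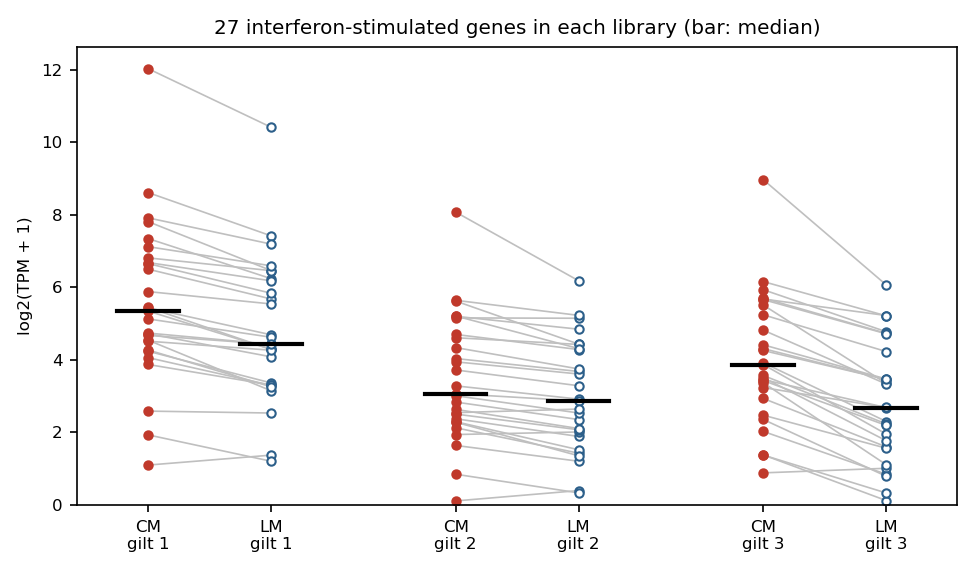
Level of 27 interferon-stimulated genes as log2(TPM + 1) in the CM (red) and LM (open blue) library of each gilt, with a grey line joining the layers for each gene and a black bar at the median of the library. The medians of gilt 1 are 5.34 in CM and 4.43 in LM, above those of the other 2 gilts, which lie between 2.68 and 3.87.

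Pig conceptuses secrete interferon delta, a type I interferon, and interferon gamma before implantation. Genes that respond to type I interferon varied with the gilt as well as with the layer. The fold change was positive for all 27 tested in the TPM as deposited, 7 (25.9%) were called higher in CM, and the median was 0.73. IFI6, the most abundant, was at 4168, 268 and 499 TPM in CM, against 1359.5, 71.5 and 65.9 TPM in LM (2.14 ± 0.25, adjusted p = 0.00309). MX1, an antiviral GTPase, was at 390.0, 48.2 and 44.6 TPM in CM, against 169.9, 20.6 and 9.20 TPM in LM (1.51 ± 0.22, adjusted p = 0.00558). For both, the LM of gilt 1 was above the CM of gilts 2 and 3, so the layers overlapped, and they did so for all 27. Of these genes, 25 were highest in gilt 1 in both layers (92.6%), against 19.8% of all genes tested. The summed level was 6140, 647.2 and 1057 TPM in CM, against 2458, 339.5 and 317.5 TPM in LM. Without IFI6 it was 1972, 378.9 and 557.4 TPM in CM, against 1098, 268 and 251.6 TPM in LM, so IFI6 made up most of the sum in gilt 1. IFI6 and MX1 kept their calls with any 1 gilt left out, while without gilt 1, 3 of the 7 did. The calls rest on the pairing, since none of the 7 passed with no gilt block. Of 23 genes of the interferon-gamma response, 1 was called, BATF2 (1.22 ± 0.29), and not without gilt 1 or gilt 3.

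Cholesterol is made through the mevalonate pathway in the cell. Of 22 genes for cholesterol and fatty acids, 5 (22.7%) were called higher in LM, none in CM, and the median was -0.73. IDI1, of the mevalonate pathway, was at 60.4, 55.1 and 65.5 TPM in CM, against 265, 109 and 241 TPM in LM (-1.65 ± 0.23, adjusted p = 0.00498). SQLE, squalene epoxidase, had -1.42 ± 0.20, INSIG1, the sterol sensor, -1.62 ± 0.24 and FDPS -1.16 ± 0.26. For IDI1, SQLE and INSIG1, gilt 1 had the highest LM level. Of the 5 calls, 1 was kept without gilt 3. SREBF2, the regulator of these genes, had -0.77 ± 0.15 and FASN, fatty acid synthase, -0.33 ± 0.11, neither of them called.

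None of 23 nuclear genes of oxidative phosphorylation was called, with a median of 0.00, and the list summed to 3709, 3393 and 3841 TPM in CM, against 3641, 3480 and 3956 TPM in LM. Under median-ratio scaling its median was -0.25 and under quantile normalization -0.15, so its direction depends on the scaling. The hexokinase HK2 (1.69 ± 0.32), the phosphofructokinase PFKL (1.18 ± 0.17) and LDHB (1.25 ± 0.27) were higher in CM and aldolase ALDOA (-1.15 ± 0.20) in LM, out of 21 genes of glycolysis and hypoxia (14.3% and 4.76%, near the shares over all genes). PFKL and LDHB lost their calls without gilt 1 or gilt 3, and ALDOA without gilt 3. Of 16 clock genes, 2 (12.5%) were called higher in CM, BHLHE40 (1.32 ± 0.19) among them, and 1 (6.25%) in LM, DBP (-1.23 ± 0.16). Over all genes these shares were 14.8% and 3.16%. TYMS (1.32 ± 0.24), which makes thymidylate for DNA, was the only one of 13 cell cycle genes called. Of 19 immediate early genes, CCN2 and NR4A2 (1.47 ± 0.21) were higher in CM and CCN1 and IER3 (-1.13 ± 0.34) in LM. PLIN4, a lipid droplet protein of adipocytes, was higher in LM (-1.61 ± 0.28), the only call among 4 adipocyte genes. Of these 4 genes, 2 had a positive fold change, and the median was -0.28. BNC1, a mesothelial transcription factor, was higher in CM (2.19 ± 0.48) and passed the filter through CM alone. It was the only 1 of 4 mesothelial genes with a positive fold change, and their median was -0.57. The mesothelial list summed to 174.2, 203 and 132 TPM in CM, against 294.5, 268.9 and 261.2 TPM in LM. Without gilt 1 or gilt 3, TYMS, BNC1 and IER3 lost their calls, and without gilt 3 so did BHLHE40, NR4A2, PLIN4 and RPS21. Of 45 ribosomal protein genes, 1 (2.22%) was called, RPS21, at 0.418, 2.38 and 0 TPM in CM, against 4.85, 5.03 and 5.50 TPM in LM (-1.86 ± 0.38, adjusted p = 0.016).

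The layer difference of day 12 was then set against that of the other states, by the difference of the layer effects in one fit of all 18 libraries with the gilt as a block. Against day 15 of pregnancy, 5 of 13969 genes passed (0.0358%), 3 with more on the CM side on day 12 (0.0215%) and 2 with more on the LM side (0.0143%), and 927 had an unadjusted p below 0.05. Against day 15 of the cycle, 21 passed (0.15%), 2 with more on the CM side on day 12 (0.0143%) and 19 with more on the LM side (0.136%), and 1339 had an unadjusted p below 0.05. The genes tested were those that passed the filter in the day 12 libraries. The day 12 libraries also differ from the other 12 in how their TPM were written, with a median of 10 significant digits against 15, and the day and this difference cannot be told apart in levels, while a layer difference is taken within a gilt.

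LRP2, megalin, an endocytic receptor of absorptive epithelia, passed against both states, and it had entered the test through the CM libraries of day 12 alone. On day 12 LRP2 was at 6.29, 8.70 and 8.20 TPM in CM, against 0.248, 0.293 and 0.165 TPM in LM. On day 15 of pregnancy it was at 0.202, 3.93 and 0.390 TPM in CM, against 0.184, 2.46 and 0.187 TPM in LM, and in the cycle at 2.04, 1.38 and 1.06 TPM in CM, against 0.586, 0.397 and 0.135 TPM in LM. The layer effect was larger on day 12 than on day 15 of pregnancy by 2.56 ± 0.29 (adjusted p = 0.0296) and than in the cycle by 1.96 ± 0.29 (adjusted p = 0.0385). It was at 6.29 TPM or more in each CM library of day 12 and at 3.93 TPM or less in every other library. PDZK1, a scaffold that anchors carriers at the apical membrane of epithelia, was the other named gene with more on the CM side on day 12. On day 12 PDZK1 was at 15.7, 19.8 and 23.2 TPM in CM, against 1.22, 1.28 and 1.48 TPM in LM. On day 15 of pregnancy it was at 3.48, 6.92 and 2.91 TPM in CM, against 1.78, 3.25 and 1.41 TPM in LM, and in the cycle at 3.48, 5.44 and 5.13 TPM in CM, against 1.77, 1.397 and 1.18 TPM in LM. The difference of the layer effects was 2.37 ± 0.30 (adjusted p = 0.0461). The unnamed gene ENSSSCG00000038056 had 3.36 ± 0.38 (adjusted p = 0.0296) and had also entered through the CM libraries of day 12 alone. With the genes chosen from the 12 libraries of the other states instead, an alternative added after seeing the data, LRP2 and this gene both had an adjusted p of 0.032 against day 15 of pregnancy, and LRP2 had 0.0405 against the cycle.

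Toward LM were KMO, an enzyme that breaks down tryptophan through kynurenine, and GNLY, a granule protein of cytotoxic lymphocytes. On day 12 KMO was at 5.44, 4.64 and 3.53 TPM in CM, against 3.73, 2.97 and 2.52 TPM in LM. On day 15 of pregnancy it was at 38.5, 66.5 and 81.0 TPM in CM, against 2.98, 7.10 and 7.12 TPM in LM, and in the cycle at 11.7, 12.7 and 17.1 TPM in CM, against 5.11, 6.27 and 6.89 TPM in LM. The layer effect of KMO on day 12 minus that on day 15 was -2.80 ± 0.24 (adjusted p = 0.00673). On day 12 GNLY was at 8.84, 1.76 and 0 TPM in CM, against 12.7, 2.94 and 0.182 TPM in LM. On day 15 of pregnancy it was at 10.7, 17.0 and 42.2 TPM in CM, against 2.67, 5.23 and 14.9 TPM in LM, and in the cycle at 4.21, 2.77 and 10.3 TPM in CM, against 3.26, 2.40 and 7.69 TPM in LM. For GNLY this difference was -1.96 ± 0.25 (adjusted p = 0.0461). On day 12 neither gene was called between the layers, with 0.44 ± 0.20 for KMO and -0.41 ± 0.22 for GNLY. Without gilt 2 or 3 of day 15, none of the 5 differences passed. None passed with any 1 gilt of day 12 left out and the filter reapplied, but not all could be tested there. That filter still asked for 1 TPM in at least 3 of the day 12 libraries left. LRP2 and ENSSSCG00000038056, below 1 TPM in each LM library of day 12, were thus never tested. GNLY was not tested without gilt 1 or without gilt 2. PDZK1 and KMO were tested each time and did not pass.

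Against the cycle, CEBPD, a transcription factor of the acute response, was the only gene besides LRP2 with more on the CM side on day 12. On day 12 CEBPD was at 80.4, 168 and 85.9 TPM in CM, against 37.3, 74.3 and 39.6 TPM in LM. On day 15 of pregnancy it was at 93.5, 137 and 127 TPM in CM, against 42.6, 83.5 and 70.7 TPM in LM, and in the cycle at 106, 143 and 385 TPM in CM, against 143, 289.8 and 547 TPM in LM. The difference of the layer effects was 1.77 ± 0.25 (adjusted p = 0.0299). The other 19 genes were more on the LM side on day 12. RPL23A (-3.64 ± 0.30, adjusted p = 0.0024), RPL36A (-3.64 ± 0.29, adjusted p = 0.0024) and RPS29 (-3.29 ± 0.41, adjusted p = 0.0172), which encode ribosomal proteins, the mitochondrial C1QBP (-3.02 ± 0.33, adjusted p = 0.0103) and ND4L (-3.0 ± 0.36, adjusted p = 0.0126) and DDA1 (-2.86 ± 0.27, adjusted p = 0.00534) had the largest differences with a symbol. On day 12 RPL36A was at 103, 72.6 and 51.5 TPM in CM, against 117, 85.6 and 69.7 TPM in LM. On day 15 of pregnancy it was at 38.9, 45.3 and 63.0 TPM in CM, against 53.9, 79.9 and 54.6 TPM in LM, and in the cycle at 65.7, 83.3 and 108 TPM in CM, against 4.73, 7.31 and 10.9 TPM in LM. As for the other 5 genes named here, its layers were alike on day 12 and far apart in the cycle, where LM was low. The LM library of cyclic gilt 3 stood apart, with 36.0% of its TPM in its 50 most abundant genes and 12627 genes at 1 TPM or more, against 24.5% to 30.1% and 12966 to 14208 genes in the other 8 LM libraries. Leaving out a gilt of day 12 lowered the 21 calls to between 2 and 12, with the filter reapplied, so that LRP2 could not be tested. Leaving out gilt 1 or 2 of the cycle lowered them to 7 and 4, and leaving out gilt 3 of the cycle raised them to 75.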

How the data were processed

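Total RNA of 18 myometrial libraries from 9 gilts was sequenced as paired reads. The processing notes of the labels name HISAT2 2.1.0 and HTSeq 0.9.1, the authors deposited TPM per Ensembl gene, and each library sums to 1000000. Gene lengths, strand setting and the counting of reads shared between genes are not given in the sources used here, and depth is unknown because TPM keeps none, so no counting error can be given. All columns of per-sample values were used, and 0 were left out. Reads were aligned to Sscrofa11.1 in the study's methods. Symbols (14692 of 24358 genes) and coordinates (13562 genes) were matched by Ensembl ID to reference tables, the coordinates from NCBI RefSeq for Sscrofa11.1.

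The tests used limma 3.58.1 in R 4.3.3 on log2(TPM + 1), with the gilt as a block and a variance trend, over the 6 libraries of day 12. Genes entered at 1 TPM or more in at least 3 of the 6 libraries. A moderated test replaced a count test because the files hold no counts. Layers were paired by the replicate number in the labels, taken as the gilt because both layers came from 3 gilts in each state. Deviations from the layer means correlated at 0.314, 0.26 and 0.371 within gilts and between -0.218 and -0.048 across gilts. Differences between states were interaction terms in a fit of the 18 libraries. Figures were drawn with matplotlib 3.10.9, and the fits were tested on simulated data.

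The 57 gene lists held 1195 memberships, of which 1059 matched 1 gene. Genes were named as the 12 largest fold changes per direction with a symbol and the same direction in each gilt, as members of the lists, as layer genes named by the study, or as the 6 largest per direction between states. Some of these genes are not reported here. The comparison and the lists were chosen with earlier results of these data known. Alternatives changed the pseudocount (0.1 or 5), the filter (none, a mean of 5 TPM or, between states, the other 12 libraries), the scaling, the block, the variance trend and the libraries used.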

Additional observations from a re-analysis of the deposited data

Results flagged for a closer look

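A set of differences between states in the layer effect passed the test of the difference itself, an interaction term in limma over 18 libraries, and are given as log2 values, day 12 of pregnancy minus the other state. Against day 15 of pregnancy they were 2.56 for LRP2, 2.37 for PDZK1, 3.36 for ENSSSCG00000038056 (LRP2 and this gene entered the test through the CM libraries of day 12 alone), -2.80 for KMO and -1.96 for GNLY. Against day 15 of the cycle they were 1.96 for LRP2 and 1.77 for CEBPD. Toward LM against the cycle they were -3.64 for RPL23A, -3.64 for RPL36A, -3.29 for RPS29, -3.02 for C1QBP, -3.0 for ND4L and -2.86 for DDA1.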

How the results depend on the processing

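No called fold change or difference named in the report changed sign under any alternative that was run. Of those not called, POU2AF1, CD79A, KCNMA1 and, on day 12, KMO changed sign under at least 1 of them. The 2515 calls became 2657 with a pseudocount of 0.1, 1503 with one of 5 (1220 higher in CM, 283 in LM), 2370 without the filter, 1841 at a mean of 5 TPM and 2342 in a fit of all 18 libraries. Without a minimum fold change they were 4591 (3508 and 1083). Median-ratio scaling gave 1643 higher in CM and 732 in LM, and quantile normalization 1346 and 902. The fit with no replicate block, which ignores the pairing, called 2349, and between states it called 0 against pregnancy and 23 against the cycle. Among the genes named, with the differences between states, it ended 28 calls, median-ratio scaling ended 33 and added 7, and quantile normalization ended 52 and added 6.

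Leaving out a gilt and reapplying the filter gave 545 to 2549 calls (451 to 1920 higher in CM, 94 to 629 in LM). That filter still asked for 1 TPM in at least 3 libraries. The 578 genes that had passed through CM alone and the 29 through LM alone could then not be tested. These counts thus reflect a stricter filter as well as the loss of a gilt. With the same genes tested, an alternative chosen after seeing the data, leaving out a gilt gave 1045 to 3215 calls (885 to 2550 and 160 to 665). The fewest came without gilt 3. Of 2074 CM calls 863, and of 441 LM calls 145, held whichever gilt was left out.

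The 5 differences against day 15 of pregnancy became 1 (pseudocount 0.1), 2 (no filter), 0 (mean of 5 TPM), 15 (median-ratio) and 10 (quantile), and stayed 5 with the genes chosen from the 12 libraries of the other states, an alternative added after seeing the data. They were 0 to 13 without a gilt of day 15 and 0 with any 1 gilt of day 12 left out. In the latter fits the reapplied filter kept LRP2 and ENSSSCG00000038056 out of the test. It also kept GNLY out without gilt 1 or without gilt 2, so the 0 was in part set by the filter. The 21 against the cycle became 20 with the genes chosen from the 12 libraries of the other states and 13 with median-ratio scaling. They were 2 to 12 without a gilt of day 12, where LRP2 could not be tested, and 4 to 75 without a cyclic gilt. Causes were not tested. TPM keeps no depth, so how depth limits low values is unknown.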
